A study of Homo sapiens with 6 samples.

Results

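Peaks of CTCF and of SMC1 were examined at the replication-dependent histone genes, the genes that supply the bulk of new histones while a cell copies its DNA. Members were the protein-coding genes of chromosomes 1 and 6 named H1-1 to H1-6 or H2AC, H2BC, H3C or H4C with a number (the HIST1 and HIST2 genes of the older nomenclature). This gave 66 of 19974 protein-coding genes, with 6 H1, 16 H2A, 17 H2B, 13 H3 and 14 H4 genes. A gene was counted as having a peak where its body, extended by 1 kb on each side, overlapped a listed peak by at least 1 bp.

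The data were CUT&Tag peak lists from IMR90, a line of human lung fibroblasts. In CUT&Tag, DNA is cut and tagged for sequencing where an antibody has recruited a transposase. CTCF is an insulator protein that binds DNA directly, and SMC1 is a subunit of cohesin, the ring-shaped complex that holds chromatin loops and sister chromatids. Each antibody was used once on control cells of low passage, on low-passage cells treated with inflachromene (ICM, a compound that binds HMGB proteins) and on senescent cells of high passage, giving 6 libraries. The p number in the titles was 21, 16 and 34 for the CTCF control, ICM and senescent libraries and 16, 16 and 34 for SMC1, so that in CTCF the treatment and the p number cannot be told apart. ICM cells had 6 days of treatment per the CTCF label, and the SMC1 label gives no days. The senescent titles name no treatment and were assigned from the series design. All cells were IMR90 and for each antibody ICM and senescent cells were set against the same control library, with no replicate for any group. No test was therefore possible, and each value below describes 1 library. The lists held 4673, 6728 and 8577 CTCF peaks and 14883, 17809 and 12927 SMC1 peaks in control, ICM and senescent cells. The number of reads behind each list is unknown. A gene without a listed peak can still carry signal below the cutoff of its list, since the lowest listed total signal was 3456, 2455 and 2796 in the SMC1 lists. As a check of the label, 5, 5 and 4 of 7 fibroblast genes (COL1A1, COL1A2, COL3A1, THY1, VIM, PDGFRB and FN1) had an SMC1 peak within 1 kb of their 5′ end in control, ICM and senescent cells. COL3A1 and THY1 had none in any list. Over all genes with a known strand the shares were 33.3%, 29.2% and 24.3%. Of 3 epithelial genes 1, 0 and 1 had one (KRT8, with EPCAM and CDH1 at 0 in all lists), and of 2 leukocyte genes 1, 1 and 0 (CD68, with PTPRC at 0). The endothelial genes PECAM1 and CDH5 had none. A peak of either protein marks occupancy, not expression.

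Replication-dependent histone genes are short, lack introns in their main transcripts and yield mRNAs that end in a stem-loop rather than a poly(A) tail. Their transcription is tied to S phase through NPAT, a coactivator that gathers at the gene clusters in bodies called histone locus bodies. H2A and H2B genes often stand head to head and share a promoter region, in which an octamer element is recognised by the factor OCT1 (POU2F1). In bulk cells, a site occupied in fewer cells and a site occupied less often in each cell cannot be told apart, and this includes a change in the share of cells that are in S phase.

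The 66 genes fell into 5 clusters when neighbours less than 250 kb apart were joined. The first, on chromosome 1, ran from H2BC18 to H2AC21 (chr1:149782689-149887965, 11 genes). On chromosome 6 followed H2AC1 and H2BC1 (chr6:25726063-25727345, 2 genes), H1-1 to H4C8 (chr6:26017032-26285534, 32 genes), H2BC11 to H2AC12 (chr6:27132316-27147562, 5 genes) and H2BC13 to H2BC17 (chr6:27807479-27893891, 16 genes). Coordinates are GRCh38. Gene lengths had a median of 494 bp, and 6 genes exceeded 3 kb through long annotated transcripts (H2BC18, H4C15, H2BC4, H2BC5, H3C6 and H2BC12).

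The promoters of 4 genes are shown because the results turn on them. H2AC11 faces H2BC11 across the SMC1 peak of highest rank by total signal, and H2AC6 faces H2BC4 across a peak found in all 3 SMC1 lists. H2BC3 had the highest-ranked control SMC1 peak of the genes outside a divergent pair. H4C2 was the gene of the largest cluster with a CTCF peak. The sequences are from RefSeq (GRCh38.p14), run 5′ to 3′ on the strand of the gene from 250 bases before to 50 bases after its start, and are in lower case. Capitals mark the octamer ATTTGCAT, the CCAAT box and the TATA box TATAAA, or their reverse complements ATGCAAAT, ATTGG and TTTATA.

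H2AC11 (chr6:27132793-27133092, plus strand): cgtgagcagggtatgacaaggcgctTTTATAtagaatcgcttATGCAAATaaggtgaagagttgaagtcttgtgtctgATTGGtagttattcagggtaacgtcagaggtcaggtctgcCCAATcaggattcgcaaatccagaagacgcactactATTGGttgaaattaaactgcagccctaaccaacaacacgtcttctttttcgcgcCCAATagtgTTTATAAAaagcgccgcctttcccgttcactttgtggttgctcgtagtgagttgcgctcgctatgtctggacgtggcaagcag

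H2AC6 (chr6:26123922-26124221, plus strand): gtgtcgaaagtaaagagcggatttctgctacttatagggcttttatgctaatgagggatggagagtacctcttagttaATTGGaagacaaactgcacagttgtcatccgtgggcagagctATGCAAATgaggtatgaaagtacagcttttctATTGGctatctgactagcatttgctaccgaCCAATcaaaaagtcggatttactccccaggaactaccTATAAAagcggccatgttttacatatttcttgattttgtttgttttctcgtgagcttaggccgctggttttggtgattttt

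H2BC3 (chr6:26043664-26043963, minus strand): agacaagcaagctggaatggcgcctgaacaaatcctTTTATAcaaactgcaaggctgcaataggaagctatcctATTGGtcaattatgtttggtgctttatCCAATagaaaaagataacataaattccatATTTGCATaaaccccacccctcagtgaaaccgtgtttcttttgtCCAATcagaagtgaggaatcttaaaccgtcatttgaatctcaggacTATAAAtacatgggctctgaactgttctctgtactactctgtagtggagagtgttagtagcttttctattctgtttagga

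H4C2 (chr6:26027234-26027533, minus strand): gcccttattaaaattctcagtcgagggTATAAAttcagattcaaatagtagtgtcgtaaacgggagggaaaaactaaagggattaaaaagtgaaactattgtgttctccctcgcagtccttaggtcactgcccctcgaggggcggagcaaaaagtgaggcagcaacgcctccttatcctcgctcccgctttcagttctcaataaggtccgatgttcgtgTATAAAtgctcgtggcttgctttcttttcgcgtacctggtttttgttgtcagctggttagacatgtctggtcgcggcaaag

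The first 3 promoters held 1 octamer each together with 4, 3 and 3 CCAAT boxes, whereas the H4C2 promoter held neither. TATAAA was matched 3, 1, 2 and 2 times in the 4 promoters in the order printed. A promoter was available for 61 members (not H4C1, H4C3, H2AC12, H3C11 or H3C12) and for 15813 genes in all, and motifs were searched on both strands. The octamer was in 26 member promoters (42.6%) against 1.72% of all promoters, in 14 H2B, 11 H2A and 1 H3 gene. CCAAT was in 52 (85.2%) against 36.4%, and TATAAA in 41 (67.2%) against 9.75%. The letters AAACACA of the H1 box, known from H1 promoters, were in all 6 H1 promoters and in 9 members (14.8%) against 4.27%. The letters TTTATAAA hold both TATAAA and its reverse complement and count as 2 matches. Promoters of facing genes overlap, so that 1 copy of a motif can be counted for both genes.

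SMC1 peaks were found at 37 of 66 histone genes in control cells (56.1%), at 17 in ICM-treated cells (25.8%) and at 16 in senescent cells (24.2%). Over all protein-coding genes the same windows overlapped an SMC1 peak in 43.6%, 42.4% and 36.0%. Histone genes are short, and among the 1906 protein-coding genes of at most 3 kb the shares were 20.7%, 17.6% and 16.8%. The control share of the histone genes was thus above both backgrounds, while the ICM and senescent shares lay below that of all genes and above that of short genes. Within 1 kb of the 5′ end, 36, 16 and 15 members had a peak (54.5%, 24.2% and 22.7%), against 33.3%, 29.2% and 24.3% of the genes with a known strand. Relative to control, the number of histone genes with a peak was 0.459-fold in ICM and 0.432-fold in senescent cells, and that of all protein-coding genes 0.972-fold and 0.825-fold. The genes of at most 3 kb with a peak numbered 395, 336 and 321 in control, ICM and senescent cells. Both backgrounds include the histone genes, and the short genes hold all of them but the 6 over 3 kb.

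**Figure D1:**
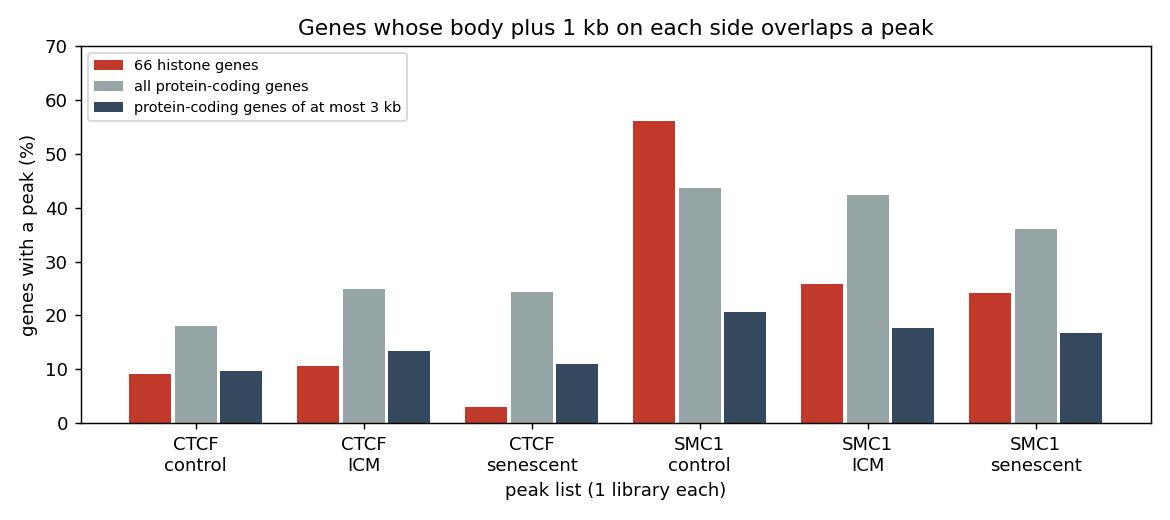
Share of genes (%, vertical axis) whose body plus 1 kb on each side overlaps a peak, for each of the 6 peak lists (horizontal axis, 1 library each); bars are the 66 histone genes (red), all protein-coding genes (light grey) and protein-coding genes of at most 3 kb (dark). The histone bar reaches 56.1% in the SMC1 control list and 25.8% and 24.2% in the ICM and senescent lists.

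Of the 37 genes with a control SMC1 peak, 16 (43.2%) also had one after ICM and 16 (43.2%) in senescent cells. Of all genes with a control peak, 85.1% had one after ICM and 72.4% in senescent cells. Of the short genes, histone genes included, the shares were 76.7% and 70.4%. The count over genes includes facing genes that share a peak, so the peaks themselves were followed as well. The 37 genes had 25 distinct control peaks, of which 10 (40.0%) were overlapped by an ICM peak and 9 (36.0%) by a senescent peak, against 80.5% and 62.0% of the whole control list. The rank of a peak bears on this, and the lower-ranked 50% of the control list was overlapped in 66.6% by ICM and in 43.4% by senescent peaks, the upper-ranked 50% in 94.5% and 80.7%. At histone genes, 7 of 11 upper-ranked control peaks were overlapped by ICM (63.6%) and 6 by senescent peaks (54.5%), and 3 of 14 lower-ranked ones by either (21.4%). At both ranks the share at histone genes lay under that of the list. This split does not match rank in full. The upper-ranked histone peaks stood at 51.1 to 74.9, apart from that at H2BC11 and H2AC11 (92.8). How far finer rank, sequencing depth or the growth state of the cells takes part in the lower shares was not tested.

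The genes with a peak differed in part between ICM and senescent cells. An SMC1 peak in all 3 lists was found at 9 genes (13.6%, against 29.3% of all genes): H2BC4, H2AC6, H1-4, H2BC5, H2BC8, H2AC8, H4C8, H2BC11 and H2AC11. Control and ICM shared 7 further genes (10.6%, against 7.78% of all genes: H2BC21, H2AC20, H2AC21, H2BC3, H1-2, H2BC12 and H2AC12), and control and senescent cells another 7 (10.6%, against 2.22%: H4C3, H2BC13, H2AC13, H2AC14, H2BC14, H2AC17 and H2BC17). In 14 genes (21.2%, against 4.26% of all genes) the peak was listed in control alone, among them H1-1, H3C1, H4C1, H2AC4, H2BC10 and the facing genes H2AC15 and H2BC15. H4C5 had a peak after ICM alone, and 28 genes (42.4%, against 48.7% of all genes) had none in any list. Neighbouring genes often share a peak, so these gene counts rest on fewer peaks. Joined as whole peaks, 5 loci were in all 3 lists and 5 in control and ICM. A further 4 were in control and senescent cells and 11 in control alone.

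**Figure D2:**
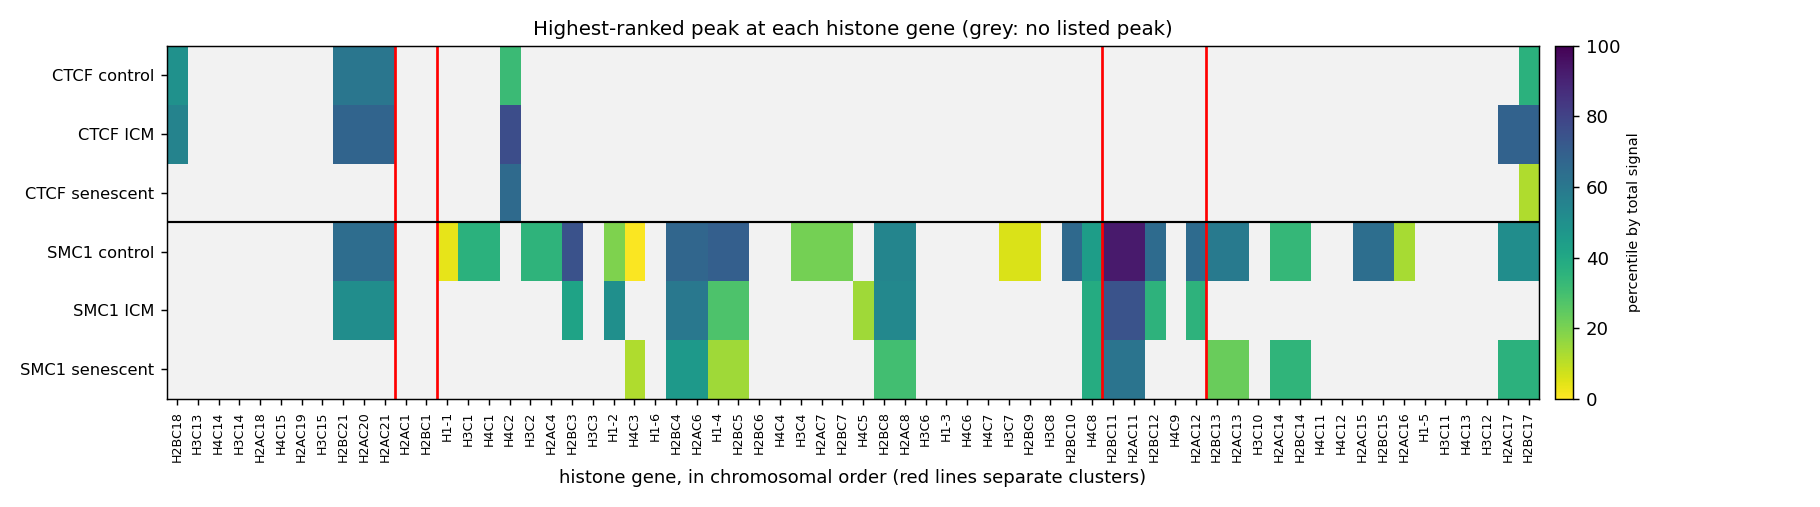
Highest-ranked peak at each of the 66 histone genes (columns, in chromosomal order, red lines between clusters) in each of the 6 lists (rows); colour gives the percentile by total signal within that list, and grey marks genes without a listed peak. The SMC1 control row is the most filled, with 37 genes, and the last cluster is empty in the SMC1 ICM row.

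The clusters differed in which list had the peaks, though most of these counts rest on few peaks of 1 library. Over all protein-coding genes the shares with an SMC1 peak were 43.6%, 42.4% and 36.0% in control, ICM and senescent cells. From H2BC13 to H2BC17, SMC1 peaks were at 9 of 16 genes in control, at 0 in ICM-treated and at 6 in senescent cells. Counted as peaks these were 6, 0 and 3, and the senescent ones stood at percentiles of 22.7 to 35.9 by total signal. On chromosome 1 the counts were 3, 3 and 0 of 11 genes (2, 2 and 0 peaks), all at the end of the cluster holding H2BC21, H2AC20 and H2AC21. The largest cluster, H1-1 to H4C8, had 21, 10 and 8 of 32 genes with a peak (15, 7 and 5 peaks), and H2BC11 to H2AC12 had 4, 4 and 2 of 5 (2, 2 and 1 peaks). H2AC1 and H2BC1, genes known for use in the testis, had no peak in any list.

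By family, SMC1 peaks lay mainly at the core histones H2A and H2B. In control cells 13 of 16 H2A (81.2%) and 14 of 17 H2B genes (82.4%) had one, against 3 of 6 H1, 4 of 13 H3 and 3 of 14 H4 genes. After ICM the counts were 6 H2A, 7 H2B, 2 H1, 0 H3 and 2 H4 genes, and in senescent cells 6, 7, 1, 0 and 2. The 4 H3 genes with a control peak (H3C1, H3C2, H3C4 and H3C7) each shared a peak with a neighbouring gene of another family, and H3C4 had a further one of its own. Of the 3 H1 genes, only H1-1 had a summit near its own 5′ end (-36 bp, control). The H1-2 summits lay 1275 and 1316 bp downstream of its start in control and ICM cells, beyond the 731 bp gene. H1-4, the only H1 gene in the senescent count, shared its peak with H2BC5, with summits 1973, 1614 and 1600 bp from the H1-4 start.

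**Figure D3:**
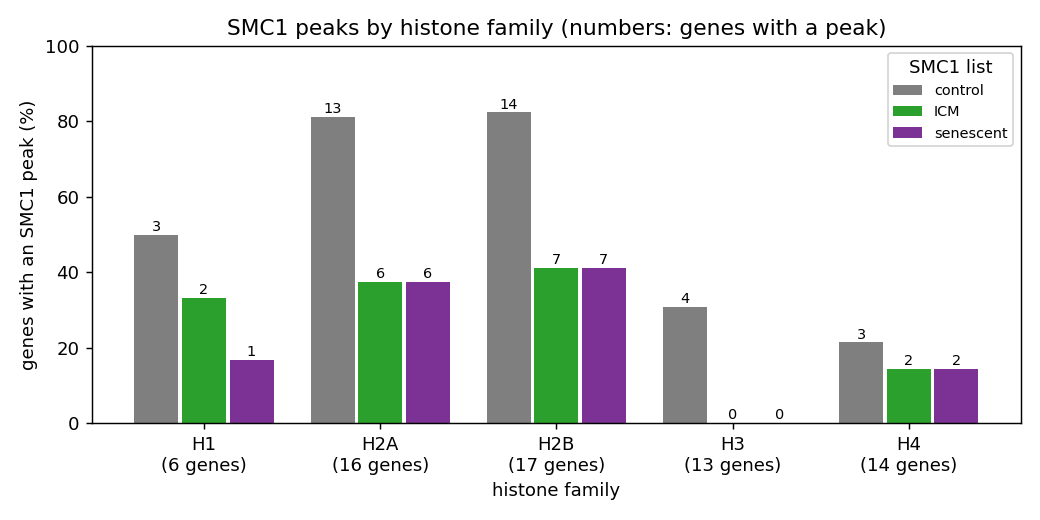
Share of the genes of each histone family (horizontal axis, with the number of genes) that had an SMC1 peak (%, vertical axis) in control (grey), ICM-treated (green) and senescent cells (purple), 1 library each; numbers over the bars count genes with a peak. H2A and H2B bars are above 80% in control, and the H3 bars are at 0 in ICM and senescent cells.

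The families also differ in arrangement, as 25 genes belonged to 12 divergent intervals in which 5′ ends on opposite strands lay within 1 kb. In 11 of these an H2A gene faced an H2B gene at 194 to 248 bp, H3C4 sharing its 5′ end with H2AC7, and in 1 H3C7 faced H2BC9 at 979 bp. An SMC1 peak overlapped the interval between the 5′ ends in 11 of 12 in control, 5 after ICM and 6 in senescent cells. Over all 991 such intervals of protein-coding genes the shares were 65.3%, 58.9% and 49.4%. The control share of histone intervals (91.7%) was above the background, the ICM share (41.7%) below it, and the senescent share (6 of 12) near it. Genes in a divergent interval had an SMC1 peak in 23, 10 and 12 of 25 cases. The other H2A and H2B genes had one in 6, 3 and 1 of 10, and the other H1, H3 and H4 genes in 8, 4 and 3 of 31.

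Between H2BC11 and H2AC11 lay the SMC1 peak that ranked highest by total signal among those at histone genes in each of the 3 lists. Its total signal (the coverage summed over the peak, in the units of its own list) was 14758 in control, 5612 after ICM and 4653 in senescent cells, with a highest signal of 49, 22 and 12. Since the lists share no scale, peaks were placed by percentile within their list, with 100 for the strongest, and this peak stood at 92.8, 74.6 and 61.7. The order was control, ICM, senescent both by total and by highest signal (94.8, 77.9 and 58.3). Its summit lay at -20 bp from the middle of the interval in control and at -114 bp in both other lists (negative values point toward H2BC11), in each case between the 5′ ends and so in the promoter printed above.

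The peak between H2BC4 and H2AC6 had a total signal of 7412, 4435 and 3951 in control, ICM and senescent cells and stood at percentile 66.8, 59.8 and 45.8. By highest signal (25, 18 and 13) its percentiles were 66.4, 63.6 and 65.4, about the same place in all 3 lists. In senescent cells it thus stood above the peak between H2BC11 and H2AC11 by highest signal (58.3). Between H2BC8 and H2AC8 the totals were 6143, 4052 and 3446 and the percentiles 54.6, 53.3 and 30.4, with the summit at -276, -272 and -265 bp from the middle, inside H2BC8.

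Other divergent pairs had the peak in only 1 or 2 lists. H2BC12 and H2AC12 had totals of 7233 in control and 3327 after ICM (percentiles 65.2 and 35.2), and H2BC21 and H2AC20 had 4974 and 3940 (37.4 and 51.0). The pairs of the last cluster had it in control and senescent cells. H2BC13 and H2AC13 stood at 59.0 and 22.7 (totals 6556 and 3248), H2AC14 and H2BC14 at 33.4 and 34.7 (4755 and 3569), and H2AC17 and H2BC17 at 51.1 and 35.9 (5864 and 3602). H2AC15 and H2BC15 had a control peak at 63.9 (total 7072) and none in the other lists, and by highest signal this peak stood at 15.8. The order also turned with the ranking at H2BC13 and H2AC13, which stood at 8.4 and 40.1 by highest signal in control and senescent cells. The weakest were the peaks at H2AC7 and H2BC7 (total 4167) and at H3C7 and H2BC9 (3621 and 3486), in control alone.

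**Figure D4:**
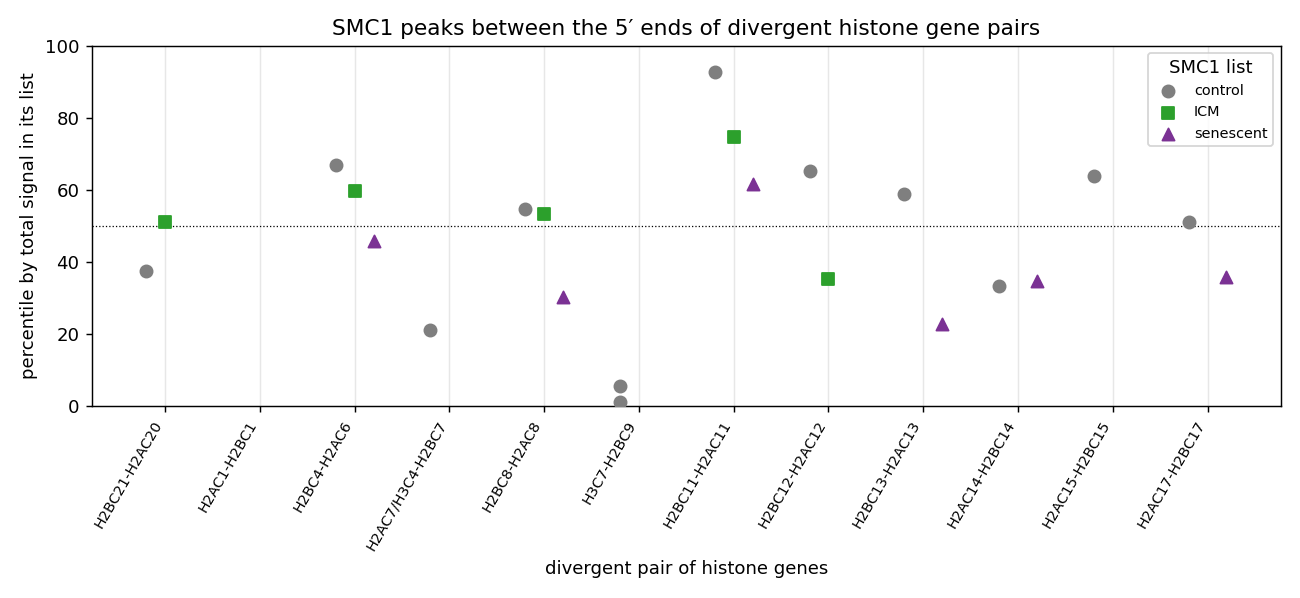
SMC1 peaks that overlap the interval between the 5′ ends of each divergent pair of histone genes (horizontal axis), placed by percentile of total signal within their own list (vertical axis, 100 is strongest; the dotted line is 50); circles are control, squares ICM and triangles senescent cells, and a missing symbol means no listed peak. H2BC11-H2AC11 is highest in each list at 92.8, 74.6 and 61.7, and H2AC1-H2BC1 has no symbol.

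Over all divergent histone pairs the median distance of a summit from the middle of the interval was 82.0, 65.0 and 115.0 bp, and the summit lay between the 5′ ends for 7 of 12 peaks in control, 4 of 5 after ICM and 4 of 6 in senescent cells. Median percentiles were 52.9, 53.3 and 35.3.

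Outside the pairs, H2BC3 stood highest in control, at 74.9 with a total signal of 8603. Its ICM peak stood at 42.0 (3572), it had none in senescent cells, and the summit was 6 and 3 bp from its 5′ end. H2BC10 had a control peak at 65.8 (7308) and none in the other lists. At H2BC5, a peak shared with the window of the linker histone gene H1-4 stood at 69.9, 27.8 and 14.4 (7816, 3089 and 3065). Its summit lay at 181 bp from the H2BC5 start in control and at -178 and -192 bp in ICM and senescent cells, negative values being upstream. H4C8 had totals of 5389, 3437 and 3681 and stood at 44.5, 38.4 and 38.2 by total but at 30.0, 16.3 and 40.1 by highest signal. H1-2 had a peak in control (total 4091) and after ICM (3898) and none in senescent cells. H4C5 stood at 14.4 in ICM and was absent from the other lists, and H4C3 at 0.467 and 12.1 in control and senescent cells, close to the cutoff.

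Over all histone genes, the median percentile of the SMC1 peaks was 37.4, 42.0 and 34.7 in control, ICM and senescent cells, under the middle of each list. Their highest signal ranged from 7 to 49 in control, 5 to 22 after ICM and 5 to 13 in senescent cells, against a median of 20, 15 and 11 over the lists. By total signal their percentiles ran from 0.467 to 92.8, from 8.75 to 74.6 and from 12.1 to 61.7.

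SMC1 peaks were then counted by promoter motif. In control cells 22 of 26 members with the octamer had an SMC1 peak (84.6%) and 12 of 35 without it (34.3%). After ICM the counts were 11 and 5 (42.3% and 14.3%) and in senescent cells 10 and 5 (38.5% and 14.3%). For the other motifs the contrast depended on the list. In control 33 of 52 members with CCAAT had a peak (63.5%) and 1 of 9 without (11.1%). After ICM the CCAAT shares were 26.9% and 22.2%, and in senescent cells 26.9% and 11.1%. With TATAAA 24, 13 and 14 of 41 members had one in control, ICM and senescent cells, against 10, 3 and 1 of 20 without. With the H1 box the counts were 4, 3 and 1 of 9, against 30, 13 and 14 of 52 without. The H1 box share was thus the lower one in control and senescent cells and the higher one after ICM. Among genes other than the members, 32.1%, 32.9% and 26.0% of the 246 with the octamer had an SMC1 peak in control, ICM and senescent cells, and 46.1%, 44.8% and 37.7% of those without it. TATAAA also went the other way there, with 21.3% to 26.6% of the genes holding it and 39.2% to 48.1% of the others over the 3 lists. For CCAAT these shares were 40.3% to 48.8% and 35.9% to 44.3%. The octamer, the H2A and H2B families and the divergent arrangement largely coincide, so their parts cannot be told apart here.

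The 28 genes with no SMC1 peak included most H3 and H4 genes and the middle of the chromosome 1 cluster. There H3C13, H4C14, H3C14, H2AC18, H4C15, H2AC19 and H3C15 had no peak of either protein. Their promoters include duplicated copies, in that H4C14 and H4C15, H3C14 and H3C15, and H2AC18 and H2AC19 were identical over 300, 296 and 299 compared bases. On chromosome 6, H4C11 and H4C12 were 98.3% identical and also had no peak. The effect of such copies on read placement was not tested. Others without an SMC1 peak were H3C3, H1-6, H2BC6, H4C4, H3C6, H1-3 and H1-5.

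CTCF peaks were few. They were found at 6 histone genes in control (9.09%), 7 after ICM (10.6%) and 2 in senescent cells (3.03%), against 18.0%, 24.9% and 24.4% of all protein-coding genes and 9.65%, 13.4% and 10.9% of genes of at most 3 kb. The control and ICM shares were close to those of short genes. Counted as peaks, there were 4, 4 and 2. By family no H1 and no H3 gene had a CTCF peak in any list.

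H4C2 had a CTCF peak in all 3 lists, with a total signal of 18737 in control, 50392 after ICM and 13256 in senescent cells. By total signal its percentiles were 31.8, 76.5 and 65.3, and by highest signal 12.1, 45.1 and 29.5, under the middle of each list. The summit lay 855, 789 and 852 bp downstream of the 5′ end of H4C2, beyond the 388 bp gene. No SMC1 peak overlapped this CTCF peak in any list. H2BC17 had a CTCF peak in all 3 lists as well, at 36.2, 68.4 and 11.9 (19643, 42755 and 7014), with the summit 2045 to 2210 bp downstream of its start. In control an SMC1 peak (percentile 22.5) overlapped it, with the summits 176 bp apart. The wider ICM peak also reached the window of H2AC17.

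Both other CTCF peaks were on chromosome 1 and were listed in control and ICM cells but not in senescent cells. The peak at H2BC18 (chr1:149791991-149793502 in control) stood at 49.6 and 55.4 and lay inside its long annotated body, 19579 bp from the 5′ end in control. The peak over H2BC21, H2AC20 and H2AC21 (chr1:149885087-149889530 in control) was broad, at 4444 and 3009 bp, with percentiles of 60.9 and 67.9 by total but 5.17 and 9.51 by highest signal. It overlapped 2 SMC1 peaks in each of these lists, and in control the nearest summits were 21 bp apart, the SMC1 summit at -488 bp from the H2AC21 start. After ICM they were 802 bp apart.

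Between the genes of the clusters only 1 further peak was listed, counting the 6 lists together. It was a CTCF peak of senescent cells at chr6:26066009-26066387, 9656 bp from H1-2, at percentile 25.8 by total and 79.1 by highest signal. SMC1 peaks inside the clusters thus all touched a histone gene window. When summits within 100 bp were joined, SMC1 peaks in the clusters formed 30 loci, of which 3 were in all 3 lists and 15 in control alone (5 and 11 of 26 with whole peaks or 500 bp windows), and CTCF peaks formed 7, of which 1 was in all 3 lists (2 of 5 with whole peaks or 500 bp windows).

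CTCF peaks of high rank stood beside 2 of the chromosome 6 clusters, on the left of each. In control, the nearest CTCF peaks on the other cluster sides stood at or under percentile 52.0, except that the peak beside H1-1 was also the nearest on the right of H2BC1. In the other lists some stood higher. The nearest on the left of H2BC11 stood at 90.1 in senescent cells, 536 kb away, and that on the right of H2BC17 at 70.9 after ICM. To the left of H1-1, at chr6:25991761-25993489 in control and 23.5 kb away, a CTCF peak stood at 93.2, 92.2 and 96.8 in control, ICM and senescent cells (totals 61698, 83453 and 34780), with the same summit position in each list. An SMC1 peak overlapped it in each, at 24.9, 43.3 and 18.0. To the left of H2BC13, at chr6:27791241-27793342 in control and 14.1 kb away, a CTCF peak stood at 82.0, 89.9 and 90.6, with an SMC1 peak in control (65.0) and senescent cells (19.5) and none after ICM. In senescent cells another CTCF peak lay nearer to H2BC13, 10992 bp away at chr6:27795622-27796487, and stood at 33.9. On the right of H4C8, the nearest CTCF peak was 36.4 kb away in control and stood at 28.8, 77.5 and 7.16. In control, the peaks 23.5 kb from H1-1 and 14.1 kb from H2BC13 ranked above every CTCF peak at a histone gene. Those that overlapped them in the other lists ranked likewise within their own list. The nearer senescent peak beside H2BC13 ranked under that of H4C2 by total signal (33.9 and 65.3). By highest signal it ranked above that of H4C2 (70.6 and 29.5).

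**Figure D5:**
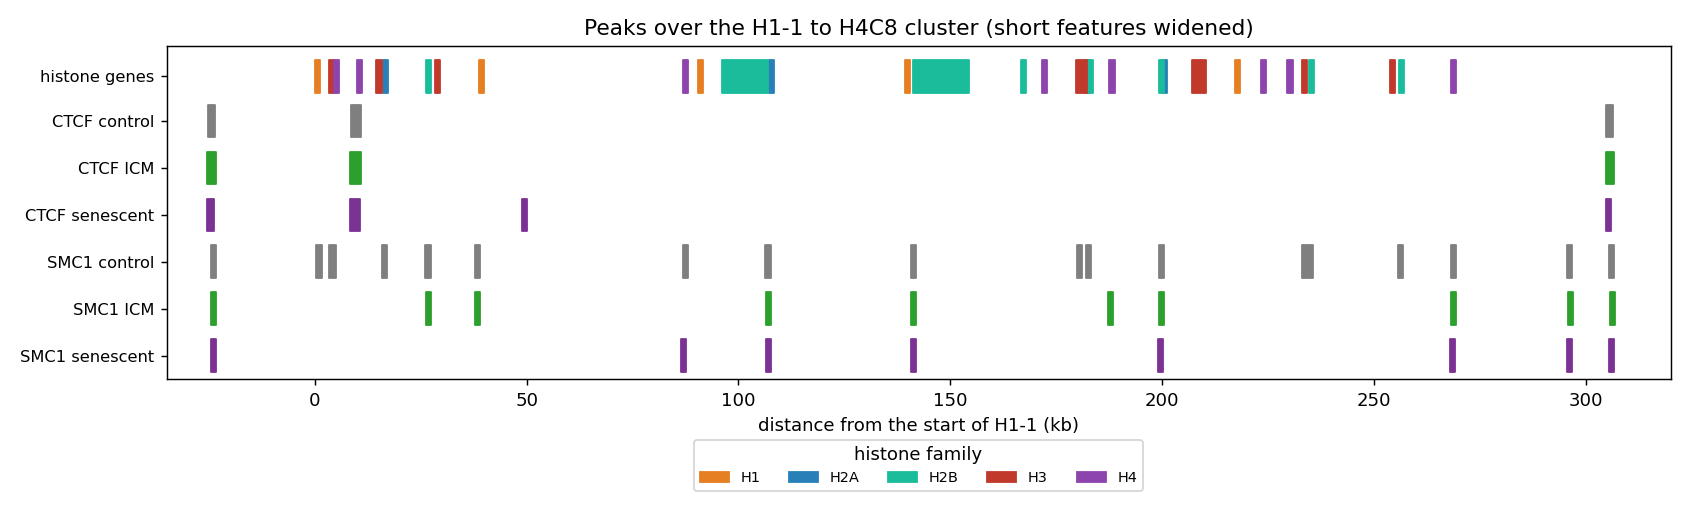
Map of the H1-1 to H4C8 cluster, with distance from the start of H1-1 on the horizontal axis (kb), the histone genes in the top row by family and the peaks of each list in the rows below, short features being widened to stay visible. CTCF peaks stand outside the genes on both sides and at H4C2 in all 3 lists, and the SMC1 control row has more peaks within the cluster (15) than the ICM (7) and senescent (5) rows.

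Genes that act on replication-dependent histone genes were read in the same way, within 1 kb of the 5′ end. Of 13 such genes 11, 10 and 8 had an SMC1 peak in control, ICM and senescent cells and 3, 5 and 3 a CTCF peak. Over all genes with a known strand these windows held an SMC1 peak in 33.3%, 29.2% and 24.3% and a CTCF peak in 10.6%, 15.1% and 11.3%. NPAT, the coactivator of the clusters, stood at 97.6, 98.3 and 95.8 for SMC1 (totals 20657, 14888 and 10399), and HINFP, which binds H4 promoters, at 71.4, 88.6 and 90.7. POU2F1, which encodes the octamer factor, had an SMC1 peak in control alone (49.9). SLBP, which binds the stem-loop of histone mRNAs, had one in control and ICM cells (totals 6979 and 3012). LSM11, a part of the U7 particle that processes these mRNAs, stood at 54.3, 84.5 and 84.1.

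Of 11 histone genes that are expressed outside S phase or in a specialised way, 7, 5 and 4 had an SMC1 peak within 1 kb of the 5′ end and 3, 5 and 3 a CTCF peak. H2AZ2, which encodes an H2A variant, stood at 97.4, 94.4 and 79.2, and H2AX, whose product marks DNA breaks when phosphorylated, at 84.6, 92.0 and 17.2. H2AZ1 stood at 62.3, 63.2 and 21.3. H3-3A had a peak in control alone (64.8), and H3-3B in control and ICM cells (42.1 and 35.4). The order of the counts over the lists in these 11 genes and in the 13 above was that of all genes, for SMC1 highest in control and lowest in senescent cells and for CTCF highest after ICM.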

How the data were processed

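CUT&Tag libraries for CTCF and SMC1 from IMR90 cells were used as peak lists. Per the methods of the study and the submitters' processing notes, the authors placed reads on hg38 with Bowtie2 2.3.4.1, used E. coli DNA as a spike-in, handled alignments with Picard 2.20.7 and called peaks in each library separately with SEACR 1.3 in stringent mode (top 1% of regions); deepTools is also named. The deposited values are the total and the highest signal of each peak, all whole numbers, so no fractional scaling is visible in them. The study also filtered CTCF peaks for a motif, which was not repeated here. Chromosome 17 peaks ended at up to 83206712 bp, and positions were read as GRCh38.

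Genes and promoters came from RefSeq (GRCh38.p14). Strands came from the RefSeq promoter or, where a gene had none, from GENCODE by symbol. A strand was known for 98.3% of the protein-coding genes and all 66 members. The symbol pattern took 68 genes, and the 2 HIST3 genes H2AC25 and H2BC26 were left out. Peaks were ranked within their list by total and by highest signal and given as percentiles, and a summit is the middle of the region of highest signal. Overlaps were counted at 1 bp or more in Python 3.11.15 with pandas 2.3.3 and tested on simulated data. With 1 library per group no test, error or p-value could be given. Genes were named where they had a CTCF peak, for the highest mean percentile among those with SMC1 peaks in all 3 lists, for SMC1 peaks in 1 or 2 lists by highest percentile, by position among those without, and from the lists of histone regulators and of other histone genes. The members, lists and rules were chosen with earlier results of these data known. Alternatives changed the gene window, the overlap rule, the list length, the clusters and the ranking.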

Additional observations from a re-analysis of the deposited data

Results flagged for a closer look

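Between control and ICM-treated cells the number of histone genes with a peak went up for one antibody and down for the other. It went from 6 to 7 genes for CTCF, a difference of 1, and from 37 to 17 for SMC1, a difference of -20. Over all protein-coding genes the shares also moved apart, from 18.0% to 24.9% for CTCF and from 43.6% to 42.4% for SMC1. The CTCF difference was not one of peaks, of which there were 4 in each list, was 3 against 3 genes where the summit had to lie in the window, and turned to 6 against 4 with lists of equal length by highest signal. Each number comes from 1 library, and whether the antibodies differ in this was not tested. The CTCF control and ICM libraries also differ in p number (21 and 16), whereas both SMC1 libraries have 16.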

How the results depend on the processing

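With 1 library per group no library could be left out. No paired analysis was possible because the groups share a single replicate number and no result comes from a test. The SMC1 counts of 37, 17 and 16 stayed within 1.5-fold under each alternative planned, at 30 to 46 in control, 12 to 21 after ICM and 13 to 20 in senescent cells. Counting peaks of the upper 50% of each list alone, an alternative chosen after seeing the data, they were 21, 10 and 2, so the senescent count rests on lower-ranked peaks; the CTCF counts were then 3 in control and 1 in senescent cells. The CTCF counts of 6, 7 and 2 rest on few peaks. They were 11, 12 and 7 with windows of 5 kb and 3, 3 and 1 where the summit had to lie in the window. The senescent count was 1 with the gene body alone, with the 5′ end and with lists of equal length by total signal, 0 with equal length by highest signal (ICM 4), and 4 with the HIST3 genes. Loci in all 3 lists numbered 2 for CTCF and 5 for SMC1 with whole peaks and with 500 bp windows, in place of 1 and 3. Peaks between genes numbered 7, 14 and 11 for CTCF and 12, 22 and 15 for SMC1 when clusters were joined over 1 Mb, and the senescent CTCF peak was lost at equal length (0). The median CTCF percentile was 18.6 in control and 39.5 after ICM by highest signal, and 21.9, 43.9 and 6.02 by mean coverage. The causes were not tested, and the depth behind each list is unknown.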

Other observations

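The HIST3 genes H2AC25 and H2BC26, which stand apart from the HIST1 and HIST2 clusters on chromosome 1, shared a peak of both proteins in all 6 lists. The CTCF peak stood at percentile 92.0, 94.5 and 82.1 by total signal in control, ICM and senescent cells, and the SMC1 peak at 85.1, 78.0 and 76.1. The SMC1 percentiles were above that of H2BC11 and H2AC11 in ICM and senescent cells (74.6 and 61.7) and under it in control (92.8). By highest signal the HIST3 peak stood at 52.9, 75.1 and 30.2, under that of H2BC11 and H2AC11 in all 3 lists (94.8, 77.9 and 58.3).

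The clusters also hold 4 protein-coding genes that are not histones. FCGR1A, which encodes an Fc receptor, and LOC124904411 lie in the chromosome 1 cluster and had a CTCF peak in control and ICM cells and no SMC1 peak. That cluster held 2 CTCF peaks in each of these lists, both already counted at histone genes, so no further peak is meant. Which gene such a shared peak belongs to was not tested. HFE, which takes part in iron uptake, and SLC17A1 had no peak of either protein in any list.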
